A study of Rattus norvegicus with 6 samples.

Results

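The genes described here encode oxidases of foreign compounds and amines that are not cytochromes P450: the flavin-containing monooxygenases Fmo1, Fmo2, Fmo4 and Fmo5, the monoamine oxidases Maoa and Maob, aldehyde oxidase Aox1 and xanthine dehydrogenase Xdh. They were taken by name, through the RefSeq accession of each probe on the array, and make up 8 of the 15284 genes that could be named and 14 of the 61657 probes. Expression was measured in liver RNA of 6 male Sprague-Dawley rats, bought at 5 weeks of age, with 1 one-colour Agilent array per rat. The treated group, 3 rats, received the anthraquinone dye intermediate 1-amino-2,4-dibromoanthraquinone (ADBAQ) at 1000 mg/kg/day, and the 3 control rats received vehicle alone. The sample characteristics call the vehicle purified water whereas the treatment protocol calls it corn oil, and the exposure is 28 days by the series design and 9 weeks by that protocol.

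Flavin-containing monooxygenases sit in the endoplasmic reticulum and use FAD, NADPH and oxygen to add an oxygen atom to nitrogen or sulfur in drugs and dietary amines. Monoamine oxidases are FAD enzymes of the outer mitochondrial membrane that break down amines such as serotonin and dopamine and release hydrogen peroxide. Aldehyde oxidase and xanthine dehydrogenase are cytosolic enzymes that carry a molybdenum cofactor, iron-sulfur clusters and FAD. The former oxidises aldehydes and nitrogen heterocycles, and the latter turns hypoxanthine into xanthine and then uric acid.

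Between 62.1% and 65.3% of probes were well above background on an array, and no probe was saturated. Levels are log2 processed signals from which the 75th percentile of each array was subtracted, so that a level of 0 is that percentile; a level belongs to its probe, and levels of different probes are not compared. All vehicle arrays lay on 1 slide and all ADBAQ arrays on another, each scanned on its own day, so slide and treatment cannot be told apart. Cyp1a1, a P450 gene that ligands of the aryl hydrocarbon receptor (AhR) induce, had signals of 2.81 to 15.5 in vehicle, where it was well above background on 1 of 3 arrays, and 25003 to 59486 in ADBAQ rats. The 16 hepatocyte markers were all well above background on every array. Most genes tested, 10780 of 11344, also had such a probe, so this does not test the liver label.

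Of the 8 oxidase genes, 4 were lower and 1 was higher in ADBAQ livers. Fmo1, Fmo2, Fmo4 and Maob fell, Fmo5 rose, and Maoa, Aox1 and Xdh did not pass the threshold, an adjusted p of 0.05 (limma, Benjamini-Hochberg adjustment over 38695 probes; each gene by its brightest probe). Of the 11344 genes tested in the same fit, 20.3% were called, 9.05% higher and 11.3% lower. The median log2 fold change of the 8 genes was -0.47, against -0.04 for all genes tested. All 8 were tested, and all but the second probe of Fmo2, which was dim on 1 ADBAQ array, had every probe well above background on all 6 arrays. The groups did not overlap in 7 of the 8 genes, and in 46.3% of all genes tested. By probe, 7 of 14 were called, against 18.4% of all probes tested. Scaled to the spike-in controls in place of the 75th percentile, the median of all genes moved to 0.73, and on that scale Fmo4, Maob and Xdh were not lower (0.0062, 0.13 and 0.47); every change below is relative to the 75th percentile, which stays close to the median of all genes.

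**Figure D1:**
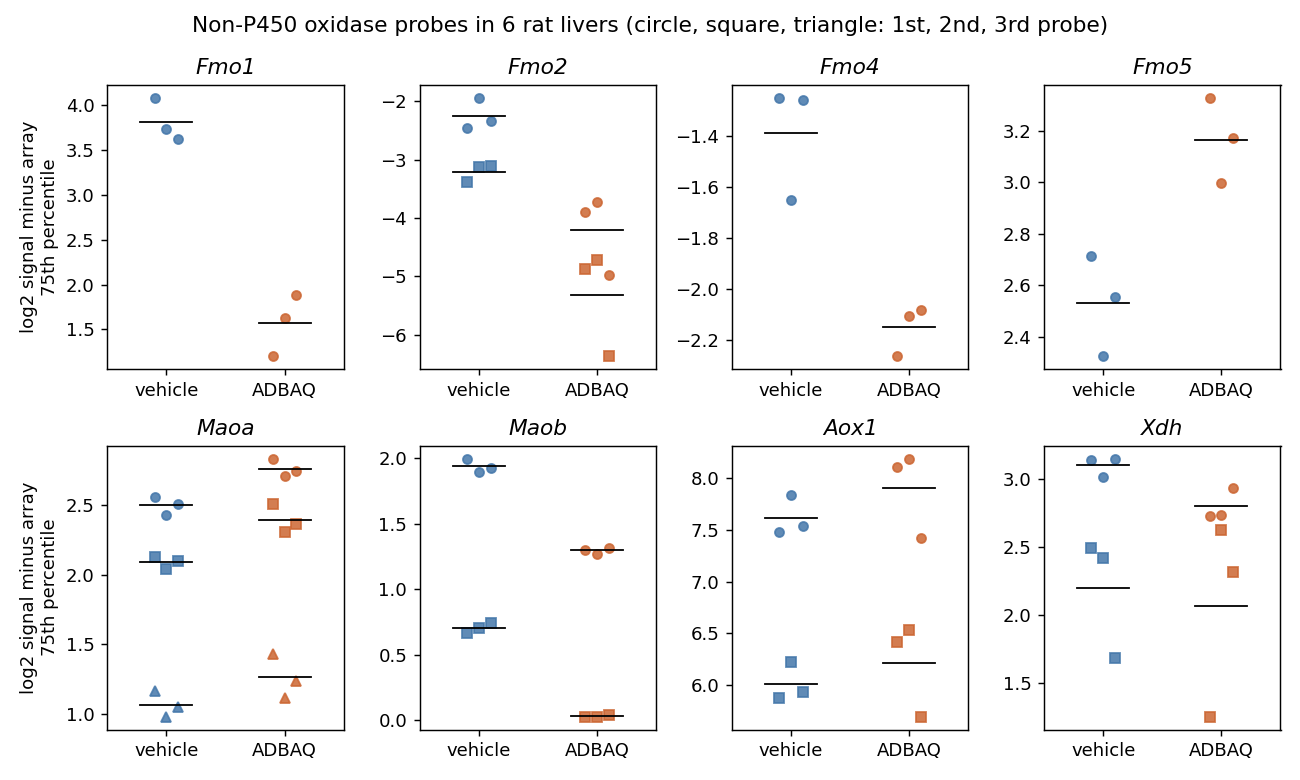
Level of every probe of the 8 genes on each array, as log2 processed signal with the 75th percentile of the array subtracted (vertical axes, each with its own range), in 3 vehicle and 3 ADBAQ rats; points are rats, marker shapes are probes and black lines are group means. The groups lie apart for Fmo1, Fmo2, Fmo4, Fmo5 and both Maob probes. They also lie apart for the first and second Maoa probes and the first Xdh probe, which were not called. They overlap for the third Maoa probe, the second Xdh probe and both Aox1 probes.

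Fmo1 is a main form of the enzyme in rodent liver. Its level was 4.08, 3.73 and 3.63 in the vehicle rats and 1.20, 1.63 and 1.89 in the ADBAQ rats. The lowest vehicle liver thus stood well above the highest ADBAQ liver. Before scaling, its processed signal was 5345 to 7699 in vehicle and 1481 to 2203 in ADBAQ. Fmo1 fell 4.73-fold (-2.24 ± 0.21 on the log2 scale, given with its SE here and below, 3 rats in each group; adjusted p = 0.00343). It ranked 44 of 11344 genes, counted from the largest decrease. The call held in each of 17 other analyses, with log2 fold changes from -2.40 to -1.47.

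Fmo2 is best known as the form of the lung. Its first probe read -2.46, -1.94 and -2.34 in vehicle and -3.90, -3.73 and -4.99 in ADBAQ. Its second probe read -3.38, -3.12 and -3.11 in vehicle and -4.88, -4.71 and -6.37 in ADBAQ. Both probes put all ADBAQ rats below all vehicle rats, and on both the third ADBAQ rat was the lowest. The signals were low, 82.8 to 120 in vehicle and 18.8 to 43.2 in ADBAQ on the first probe, and the second probe was not well above background in the third ADBAQ rat. Fmo2 fell 3.88-fold on the first probe (-1.96 ± 0.35, adjusted p = 0.0165), and the second changed by -2.11 ± 0.43 (adjusted p = 0.0236). The call of the second probe was lost without any 1 of the vehicle rats (adjusted p up to 0.0704). It was also lost without the first ADBAQ rat and with the replicate number as a block. The values depended on the background treatment: with normexp correction they were -1.12 and -0.86, both still called. Without the third ADBAQ rat the first probe gave -1.56.

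Fmo4, a less abundant member with few known substrates, had levels of -1.25, -1.65 and -1.26 in vehicle and -2.26, -2.11 and -2.08 in ADBAQ. Here the ADBAQ rats were close together and all below the vehicle rats. Fmo4 fell 1.70-fold (-0.76 ± 0.14, adjusted p = 0.0170). The call was lost without vehicle replicate 3, without any 1 of the ADBAQ rats (adjusted p up to 0.0620) and with the replicate number as a block.

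Fmo5, which favours the insertion of oxygen next to a carbonyl over oxidation of nitrogen, was the only member called higher. Its level was 2.71, 2.33 and 2.55 in vehicle and 3.33, 3.00 and 3.17 in ADBAQ. No vehicle rat reached the lowest ADBAQ rat. Fmo5 rose 1.55-fold (0.63 ± 0.14, adjusted p = 0.0300). This call was lost when any rat other than vehicle replicate 1 was left out (adjusted p up to 0.0921), while the direction stayed.

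In the GRCr8 assembly Fmo4, Fmo1 and Fmo2 follow each other on chromosome 13 with no annotated gene between them. These 3 neighbours were all called lower, and Fmo5, on chromosome 2, was called higher.

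The sequences before the start sites of Fmo1 and Fmo2, which fell most, and of Fmo5, which rose, are shown because Cyp1a1, an AhR target, was raised in these livers. That of Maob is shown as the other window of a called member that held the motif searched. Each is the 250 bases before the RefSeq start in GRCr8, 5′ to 3′ on the gene's strand, and capitals mark the core motif of AhR binding, GCGTG, on either strand. They lie at chr13:77747667-77747916 (Fmo1, minus strand), chr13:77777535-77777784 (Fmo2, minus strand), chr2:187910714-187910963 (Fmo5, plus strand) and chrX:8490155-8490404 (Maob, plus strand).
Fmo1: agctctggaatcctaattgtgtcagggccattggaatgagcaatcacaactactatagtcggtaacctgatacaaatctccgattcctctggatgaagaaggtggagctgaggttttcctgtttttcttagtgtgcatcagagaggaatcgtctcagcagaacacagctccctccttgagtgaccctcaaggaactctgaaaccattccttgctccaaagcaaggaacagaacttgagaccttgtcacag
Fmo2: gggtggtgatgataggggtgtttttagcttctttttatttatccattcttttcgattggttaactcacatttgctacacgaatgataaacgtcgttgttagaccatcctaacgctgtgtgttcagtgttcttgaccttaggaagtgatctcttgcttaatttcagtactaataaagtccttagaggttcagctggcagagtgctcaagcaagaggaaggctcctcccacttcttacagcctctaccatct
Fmo5: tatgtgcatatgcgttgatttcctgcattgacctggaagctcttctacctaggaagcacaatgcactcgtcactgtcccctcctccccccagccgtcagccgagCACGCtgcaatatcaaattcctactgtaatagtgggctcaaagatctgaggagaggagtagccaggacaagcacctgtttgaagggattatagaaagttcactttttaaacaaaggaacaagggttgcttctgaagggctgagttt
Maob: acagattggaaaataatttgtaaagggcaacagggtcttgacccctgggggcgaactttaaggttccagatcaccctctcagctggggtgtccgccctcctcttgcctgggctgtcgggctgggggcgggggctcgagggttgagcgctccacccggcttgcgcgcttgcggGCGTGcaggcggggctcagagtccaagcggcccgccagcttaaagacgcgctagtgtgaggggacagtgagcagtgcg
The motif occurred once before Fmo5, its first base 146 bases before the start and read on the opposite strand, and once before Maob, 78 bases before the start. It was not in the windows of Fmo1, Fmo2, Maoa, Aox1 or Xdh, so that 2 of 7 windows held it, and Fmo4 was not among the windows searched. Of 33469 promoter windows in the table, 25.9% held it. The core of the antioxidant response element, searched as TGACNNNGC on both strands, was in none of the 7 windows and in 10.1% of all. The windows with the AhR core belonged to a member that rose and a member that fell.

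Of the monoamine oxidases, which share a fold and a cofactor, Maob fell and Maoa did not pass the threshold. Maob, which prefers phenylethylamine, read 2.00, 1.90 and 1.93 on its first probe in vehicle and 1.30, 1.27 and 1.32 in ADBAQ. Its second probe read 0.66, 0.70 and 0.74 in vehicle and 0.03, 0.03 and 0.04 in ADBAQ. On both probes the rats of a group agreed closely and the groups lay far apart. Maob fell 1.56-fold on the first probe (-0.64 ± 0.08, adjusted p = 0.00764) and by 0.67 ± 0.08 on the log2 scale on the second (adjusted p = 0.00622). The spread between rats was small, with an SD of 0.05 in vehicle and 0.02 in ADBAQ on the first probe. Its call was lost in 1 of 17 other analyses, that with spike-in scaling.

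Maoa, which prefers serotonin and noradrenaline, lies next to Maob on the X chromosome with no annotated gene between. Its brightest probe read 2.56, 2.43 and 2.50 in vehicle and 2.83, 2.70 and 2.74 in ADBAQ. The ADBAQ rats were all above the vehicle rats on this probe and on the second, and the groups overlapped on the third. The difference was 0.26 ± 0.09 (adjusted p = 0.0834), with a 95% interval from 0.05 to 0.47, and the other probes gave 0.30 ± 0.09 and 0.20 ± 0.11. None of the 3 probes passed the threshold, so Maoa was not called. It was called with normexp correction, with trend and robust variance estimation and with spike-in scaling.

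**Figure D2:**
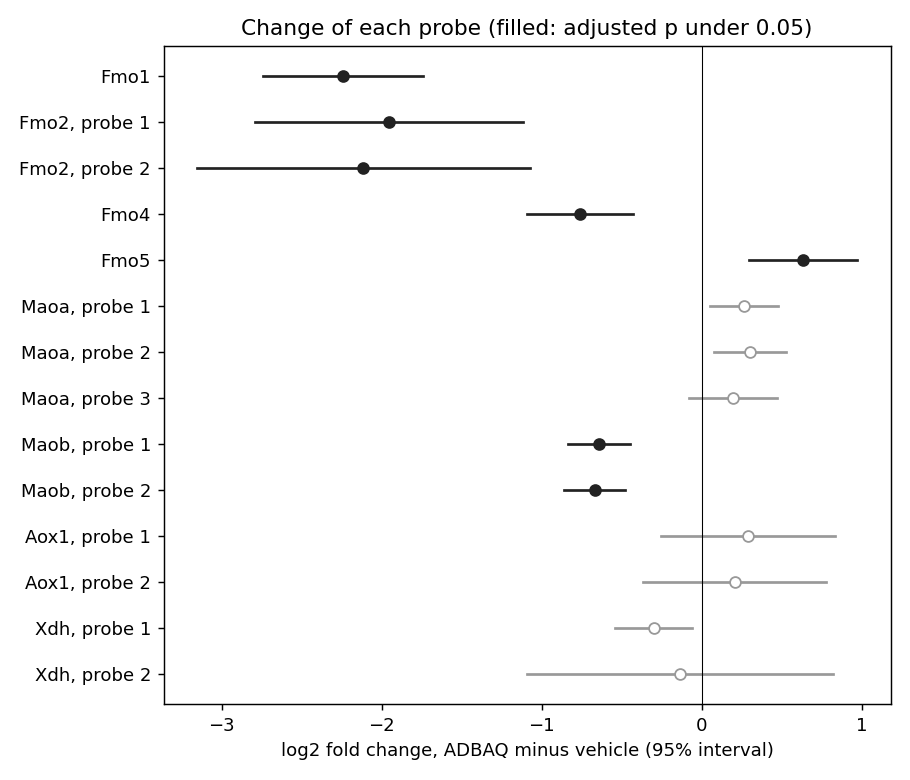
Log2 fold change, ADBAQ minus vehicle, of each of the 14 probes (points) with its 95% interval from limma (lines); filled points have an adjusted p under 0.05. Probes of the same gene lie close together, with Fmo1 and Fmo2 near -2 and Fmo5 alone among called probes to the right of 0.

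Aox1 did not pass the threshold on either probe. Its first probe read 7.48, 7.84 and 7.54 in vehicle and 8.10, 8.19 and 7.42 in ADBAQ. Its second probe read 5.87, 6.22 and 5.93 in vehicle and 6.42, 6.53 and 5.70 in ADBAQ. On both probes the first and second ADBAQ rats lay above all vehicle rats and the third lay below all of them. The difference was 0.29 ± 0.22 (adjusted p = 0.397), with a 95% interval from -0.25 to 0.83, whose upper end is a 1.78-fold increase. Leaving out a rat gave values from 0.15, without the second ADBAQ rat, to 0.53, without the third, none of them called. Aox1 was called higher with spike-in scaling (1.06).

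Xdh, whose product supplies uric acid, read 3.13, 3.01 and 3.15 in vehicle and 2.72, 2.74 and 2.93 in ADBAQ on its first probe. All ADBAQ rats were lower there, by 0.30 ± 0.10 on the log2 scale (adjusted p = 0.0824; 95% interval of the difference -0.54 to -0.06). The second probe scattered within both groups, from 1.68 to 2.49 in vehicle and from 1.25 to 2.62 in ADBAQ. Its difference was -0.13 ± 0.40 (adjusted p = 0.835). The third vehicle rat and the first ADBAQ rat were low on the second probe but not set apart on the first. Xdh was not called, except in the analysis with trend and robust variance estimation and, as higher, with spike-in scaling.

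Differences between relatives were then taken within each array, where the scaling of the array cancels. For 4 pairs, the difference of the brightest probes was compared between groups with an exact two-sided permutation test, which with 3 rats against 3 cannot go below p = 0.1. The balance of Fmo1 to Fmo5 shifted 7.34-fold towards Fmo5 (change of the log2 difference -2.88 ± 0.29; exact p = 0.1, adjusted p = 0.133 over the 4 pairs). That of Fmo2 to Fmo4 shifted by -1.19 ± 0.51 (exact p = 0.1, adjusted p = 0.133), and by -0.60 with normexp correction. That of Maoa to Maob shifted 1.87-fold towards Maoa (0.91 ± 0.04; exact p = 0.1, adjusted p = 0.133), with an SD between rats of 0.02 in vehicle and 0.06 in ADBAQ. In these 3 pairs the groups did not overlap. The balance of Aox1 to Xdh differed by 0.59 ± 0.34 with overlapping groups (exact p = 0.2, adjusted p = 0.2). A within-array shift shows that the pair changed unequally and not which of them moved. The pairs were chosen with earlier results of these data known. Their shifts restate the changes of the single genes and are no separate support for them.

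**Figure D3:**
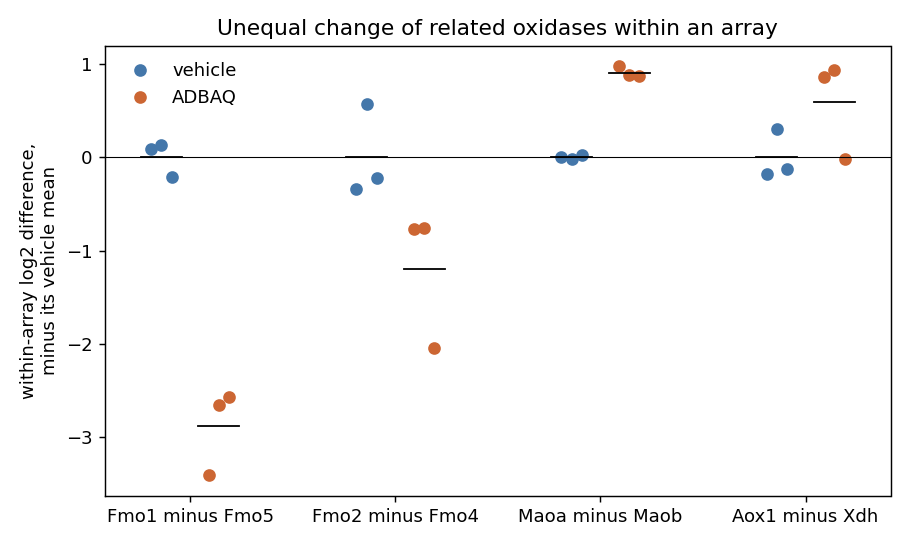
Within-array log2 difference between the brightest probes of related oxidases, minus its mean in vehicle (vertical axis), for 4 pairs; points are rats and black lines are group means. The ADBAQ rats lie between -3.41 and -2.57 for Fmo1 minus Fmo5 and between 0.87 and 0.97 for Maoa minus Maob, and overlap the vehicle rats for Aox1 minus Xdh.

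Other genes of these pathways were taken from 8 lists drawn up by function. Of 70 tested list genes, 7 were higher and 22 lower (41.4% called; median -0.13). Of all genes tested, 20.3% were called, 9.05% higher and 11.3% lower. The counts of single lists below rest on few genes, and some lie near that share. On the spike-in scale Mtarc1, Suox, Gphn, Adk, Uox, Aldh2 and Cyb5r3, given below as lower, had values above 0. Of these, Suox (0.27) and Aldh2 (0.26) were called higher on that scale. There, each of the 8 lists had more genes called higher than lower, so the counts below depend on the scaling. Of the purine genes 8 of 12 were higher and none lower, and of the monoamine genes 7 of 11 were higher and 1 lower. Of the other monooxygenases and amine, polyamine and amino acid oxidases 14 of 18 were higher and 1 lower. In the list of other monooxygenases and of amine, polyamine and amino acid oxidases, 3 of 18 rose and 4 fell (median 0.03). The D-amino acid oxidase gene Dao fell (-1.20 ± 0.24) and Aoc1, the diamine oxidase that degrades histamine, rose (1.03 ± 0.26). Dao was not called when any vehicle rat or the third ADBAQ rat was left out. Aoc1 was called in 1 of the 6 analyses that left out a rat, and its value was 0.31 with normexp correction.

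In the list of other aldehyde oxidases and molybdenum enzymes, 3 of 5 were lower and none higher (median -0.50). Aox3, another aldehyde oxidase, had levels of -1.59, -0.95 and -0.51 in vehicle and -3.62, -3.05 and -2.57 in ADBAQ. It fell (-2.06 ± 0.36, adjusted p = 0.0154) and its second probe did so too (-2.02 ± 0.49). Mtarc1, an amidoxime reductase, and Suox, the sulfite oxidase, fell by 0.71 and 0.50 on the log2 scale, but were called in 1 and 3 of the 6 analyses without a rat. Of 4 genes that make the cofactor, Mocs2, a subunit of molybdopterin synthase, rose (0.68 ± 0.10, adjusted p = 0.0112) and Gphn, gephyrin, fell (-0.45 ± 0.12), a call lost whichever rat was left out.

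Genes of purine breakdown and salvage, the pathways around Xdh, had 5 of 12 lower and none higher (median -0.24). Adk, adenosine kinase, fell by 0.65 ± 0.09 and Uox, which oxidises uric acid in rodents, by 0.62 ± 0.15. Allc fell by 0.95 ± 0.18, with its probe well above background on 1 of the 3 ADBAQ arrays, and its value was -0.53 with normexp correction. Uox was called in 1 and Allc in 3 of the 6 analyses without a rat, and Adk in all 6.

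Genes that handle monoamines alongside Maoa and Maob had 3 of 11 lower and none higher (median -0.08). Slc29a4, a monoamine transporter of the plasma membrane, fell on its brightest probe from 1.25, 1.21 and 1.31 in vehicle to -2.33, -1.65 and -1.87 in ADBAQ (-3.20 ± 0.18, adjusted p = 0.000969). Its other probes gave -0.59, which was called, and -0.38, which was not, so that the size rests on the probe. Sult1a1, a sulfotransferase of phenols and catecholamines, fell by 1.08 ± 0.25 and Aldh2, which oxidises the aldehydes that monoamine oxidases release, by 0.51 ± 0.09. The call of Sult1a1 was lost whichever rat was left out, and that of Aldh2 in 4 of these 6 analyses.

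Of 7 hydroxy acid and acyl-CoA oxidases and epoxide hydrolases, 1 rose and 4 fell (median -0.62). Ephx1, the microsomal epoxide hydrolase, rose (1.61 ± 0.17, adjusted p = 0.00454), Hao2, a peroxisomal hydroxy acid oxidase, fell (-1.01 ± 0.10), and Acox2, a branched-chain acyl-CoA oxidase of bile acid synthesis, fell (-1.88 ± 0.46). Acox2 was called in 2 of the 6 analyses without a rat. Among 6 electron donors of the microsomes, Por, the P450 reductase, rose (1.14 ± 0.19, adjusted p = 0.0150), Cyb5a rose (0.39 ± 0.08) and Cyb5r3 fell (-0.46 ± 0.12). The last pair of calls was lost whichever rat was left out. Of 7 genes listed for FAD and riboflavin, 1 was lower, Acp5 (-0.87 ± 0.13), and none higher. Acp5 is not one of the enzymes that make FAD from riboflavin. Those are Rfk (0.05 ± 0.08) and Flad1 (0.08 ± 0.12), and neither passed the threshold.

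**Figure D4:**
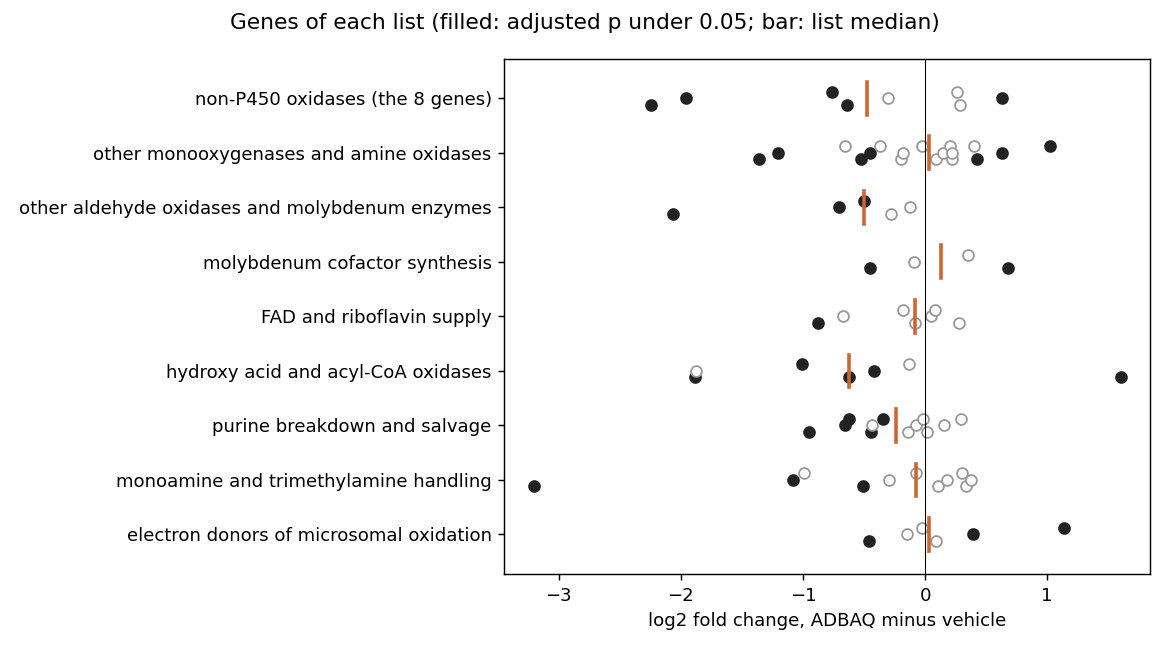
Log2 fold change, ADBAQ minus vehicle, of the 8 oxidase genes (top row) and of the tested genes of 8 functional lists, each gene by its brightest probe; filled points have an adjusted p under 0.05 and the bar is the list median. The list medians lie between -0.62 and 0.13.

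Markers of cell types were read in the same fit, in which 9.05% of all genes tested were called higher and 11.3% lower. In bulk liver, fewer cells of a type and less RNA per cell cannot be told apart. Of 16 general hepatocyte markers 10 fell and 1 rose (median -0.46), and their summed level, as multiples of the 75th percentile, was 9867 to 10530 in vehicle and 7057 to 7301 in ADBAQ. The brightest probes weigh most in this sum. Before scaling, Alb (454340 to 484400 in vehicle, 487580 to 491150 in ADBAQ) and Ttr (563810 to 585540, 598190 to 600660) were not lower in ADBAQ. Fga and Apoc3 were lower before scaling too. The 75th percentile itself was 433 to 461 in vehicle and 570 to 643 in ADBAQ. Of 9 periportal markers 6 fell (median -0.74; sums of 711 to 808 against 436 to 454), and of 10 pericentral markers 4 fell and 1 rose (median -0.51; sums of 397 to 429 against 176 to 240). On the spike-in scale the medians of these lists were 0.31, 0.03 and 0.26 in the same order, with 8 of the 16 general markers higher and 3 lower, so that these decreases too are relative to the 75th percentile. The 4 erythroid markers all rose (sums of 205 to 286 against 415 to 556), and of 7 cholangiocyte markers 3 rose and 1 fell (2.44 to 2.64 against 3.37 to 4.91). None of the 11 Kupffer cell and macrophage markers (120 to 147 against 127 to 145), the 6 sinusoidal endothelial (38.1 to 42.0 against 31.3 to 35.7) or the 10 stellate cell markers (34.9 to 47.1 against 32.5 to 36.8) passed the threshold, nor did the 6 of neutrophils and mast cells (1.08 to 1.73 against 1.39 to 2.65). With spike-in scaling 11 of 11, 5 of 6, 9 of 10 and 5 of 6 of these were called higher, respectively. Of T and NK cell markers 1 of 8 fell (2.71 to 3.34 against 2.67 to 2.85), of B and plasma cell markers 1 of 3 (0.44 to 0.58 against 0.35 to 0.49) and of smooth muscle markers 1 of 4 (7.54 to 8.12 against 6.35 to 7.39). The B and plasma cell marker that fell, Mzb1, was well above background on 1 of the 3 ADBAQ arrays. On the spike-in scale 7 of 8, 2 of 3 and 3 of 4 markers of these lists were called higher, and 1 B and plasma cell marker lower. The part of these shifts in the changes of the oxidases was not tested.

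The genes whose level followed Fmo1 most closely over the 6 arrays were Pald1, Tgfb3 and Chmp2a (Pearson r of 1.000, 0.999 and 0.998), and for Maob they were Jup, Slc16a1 and Tpst1 (0.999, 0.999 and 0.998). These values are a description: the arrays fall into the groups compared, and 11.1% of the 10762 genes compared had an r over 0.9 with Fmo1 and 11.9% with Maob. The changes differed in size, from -0.17 for Chmp2a, which was not called, to -1.63 for Tpst1.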

How the data were processed

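Liver RNA of 6 rats was read on 1-colour Agilent arrays, 1 per rat. Per the file headers, signals came from Agilent Feature Extraction 10.7.1.1, and the deposited scanner files hold linear intensity values with background already removed, beside flag columns of the kind other. The deposited series table is a ratio, the processed signal over the array's 75th percentile, as a comparison with the scanner files showed, linear and with no centring of genes. Its column medians ran from 0.0929 to 0.0982. Values here were log2 processed signals with each array's 75th percentile subtracted. Outlier spots, at most 2 per array, were left out. Probes were named by RefSeq accession through a GRCr8 gene table, and 38695 probes well above background on all 3 arrays of a group were tested with limma 3.58.1 in R 4.3.3 (lmFit, eBayes), adjusted by Benjamini-Hochberg at 0.05. The array was designed on rn4, so no probe coordinates are given. Promoter sequences are those of RefSeq in GRCr8. A gene is represented by its brightest kept probe; SE are those of eBayes. Normexp used the median spot signal, since no mean signal was in the files, with an offset of 50. Further alternatives are given in the closing section. The procedure was tested on simulated data. Named are the 8 genes with all probes, up to 3 called genes with the largest change from each pathway list, and for Fmo1 and Maob the 3 genes with the highest correlation. Genes, lists and tests were chosen with earlier results of these data known. One gene that this rule names is not reported here. Rfk, Flad1 and Ephx2 were named after their values were seen. Probes of close relatives were not examined for shared targets. Separate animals are described in the labels' protocols.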

Additional observations from a re-analysis of the deposited data

How the results depend on the processing

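Of the 17 alternatives, the count of called oxidases stayed between 4 and 7 outside the analyses that left out a rat. The directions did not stay: with spike-in scaling 4 were higher and 2 lower, against 1 higher and 4 lower in the main analysis. Leaving out each rat gave 3 to 5 genes and 4 to 6 probes, against 5 and 7. Over all genes 2308 were called, and 9170 with spike-in scaling, 4044 with normexp correction, 3530 with no filter on dim probes and between 901 and 1543 without a rat; 44.5% of calls were higher, 98.0% with spike-in scaling, 34.4% with normexp correction and 32.4% without the filter. With spike-in scaling Fmo4 (0.0062 ± 0.15) and Maob (0.13 ± 0.10) were not called, and Xdh (0.47 ± 0.12) was called higher. With the replicate number as a block, 982 genes and 4 oxidases were called, Fmo4 being lost; same-numbered rats did not deviate together (r from -0.0292 to -0.00456), so the numbers are not treated as pairs. Without vehicle replicate 3 or any ADBAQ rat both Fmo4 and Fmo5 were lost, and without vehicle replicate 2 Fmo5. The 4 within-array differences kept their direction with normexp correction and with the mean of a gene's probes, though Fmo2 minus Fmo4 was -0.60 with the former. No fit with slide as a block was run, since a slide holds 1 group. The cause of these shifts was not tested. The number of arrays limits the precision, and dim probes such as those of Fmo2 depend most on the background correction.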

Other observations

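Ephx2, the soluble epoxide hydrolase, differed widely between rats of a group. It read 2.79, 1.48 and 0.89 in vehicle and -2.18, 0.91 and 0.81 in ADBAQ, so that the first ADBAQ rat stood below the other 5 rats. Its difference between groups was -1.87 ± 0.92 (adjusted p = 0.199), and its SD was 0.97 in vehicle and 1.76 in ADBAQ. The first ADBAQ rat was also the lowest on the second Xdh probe and not the lowest on either Aox1 probe. These differences between rats were not tested.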
